A study of Mus musculus with 6 samples.

Results

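The genes described here are 10 transcripts of the circadian clock and its D-box output arm: Arntl, Npas2, Nr1d1, Per2, Dbp, Tef, Hlf, Nfil3, Usp2 and Bhlhe41. They were chosen by symbol from the 55401 gene identifiers of the deposited tables, and each symbol matched 1 identifier. Kidneys of diabetic mice were compared, 3 from Cdo1KKO/Sed mice and 3 from WT/Sed mice, by sequencing poly(A) RNA. All 6 animals had received streptozotocin, which destroys the beta cells of the pancreas and so causes type 1 diabetes. The Cdo1KKO/Sed genotype targets Cdo1, cysteine dioxygenase, in the renal tubule according to the stated design, and WT/Sed mice are the wild type. The promoter or Cre line behind the deletion, the meaning of Sed, and the age and sex of the animals are not in the labels. The labels also do not give the hour of tissue collection, the light cycle or the feeding state, which matter for the level of any rhythmic transcript.

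The circadian clock is a transcription loop found in most cells of the body, kidney tubules included. BMAL1, the product of Arntl, pairs with CLOCK or its relative NPAS2, binds E-boxes and drives the genes for its own repressors, the PER and CRY proteins, and for REV-ERB alpha, the product of Nr1d1. REV-ERB alpha in turn represses Arntl and other genes through ROR elements, so that Arntl and its targets peak at opposite parts of the day. The loop also drives Dbp, Tef and Hlf, which encode the PAR bZIP activators of D-boxes, while NFIL3 represses the same elements. In the kidney these factors are known for daily rhythms of filtration, salt excretion and detoxification.

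Promoter windows were examined for the elements through which these factors act on each other. RefSeq windows (GRCm38.p6, 250 bases before to 50 after a transcript start) were held for 9 of the 10 genes, 11 windows in all, and Per2 had none. The motifs searched on both strands were the E-box CACGTG, the variant E-box CACGTT, the D-box TTANGTAA and the ROR element TAGGTCA. Among all 32851 windows of the mouse table, 7.15% held CACGTG, 4.69% CACGTT, 2.32% TTANGTAA and 2.61% TAGGTCA. Matches were found for 5 of the genes, none of them overlapping another. The ROR element was in 1 of the 2 Arntl windows, 31 bases after the start, and the other Arntl window held no match. The Nfil3 window held it 12 bases before the start, on the opposite strand. Both Tef windows and the Bhlhe41 window held CACGTG, at positions -127 and -138 in Tef and -153 in Bhlhe41. Nr1d1 held CACGTT at position -28 on the opposite strand, and the D-box was in none of the 11 windows. The 4 windows printed are those that show the elements shared by a pair of genes, with the motif in capitals, each 5′ to 3′ on the strand of its gene. They lie at chr7:113207261-113207560 (plus strand) for Arntl, chr13:52980990-52981289 (minus strand) for Nfil3, chr15:81802423-81802722 (plus strand) for Tef and chr6:145865371-145865670 (minus strand) for Bhlhe41. A match describes these letters and not a bound site.
Arntl: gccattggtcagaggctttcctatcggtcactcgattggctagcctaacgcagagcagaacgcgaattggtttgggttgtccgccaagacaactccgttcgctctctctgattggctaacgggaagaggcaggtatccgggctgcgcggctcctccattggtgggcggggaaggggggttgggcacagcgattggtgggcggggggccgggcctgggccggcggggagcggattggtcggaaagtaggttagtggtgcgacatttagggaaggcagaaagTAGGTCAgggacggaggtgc
Nfil3: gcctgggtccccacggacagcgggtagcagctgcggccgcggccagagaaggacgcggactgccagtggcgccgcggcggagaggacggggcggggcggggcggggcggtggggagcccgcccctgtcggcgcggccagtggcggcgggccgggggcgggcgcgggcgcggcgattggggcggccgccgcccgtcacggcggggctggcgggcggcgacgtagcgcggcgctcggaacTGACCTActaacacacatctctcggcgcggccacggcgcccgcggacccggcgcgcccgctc
Tef: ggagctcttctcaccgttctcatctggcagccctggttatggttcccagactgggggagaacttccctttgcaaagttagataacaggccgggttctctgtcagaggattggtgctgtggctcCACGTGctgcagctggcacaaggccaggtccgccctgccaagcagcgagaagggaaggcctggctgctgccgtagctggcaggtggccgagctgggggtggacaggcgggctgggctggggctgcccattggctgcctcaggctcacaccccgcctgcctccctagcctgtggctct
Bhlhe41: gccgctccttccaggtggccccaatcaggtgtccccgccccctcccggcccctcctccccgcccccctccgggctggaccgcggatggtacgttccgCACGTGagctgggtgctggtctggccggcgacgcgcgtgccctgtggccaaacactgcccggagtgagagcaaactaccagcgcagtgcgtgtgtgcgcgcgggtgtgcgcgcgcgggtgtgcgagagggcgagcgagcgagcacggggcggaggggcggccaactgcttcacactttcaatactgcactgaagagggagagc

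The libraries held 28145261 to 43872779 counts. Levels are given as CPM, counts scaled to a common library size after TMM normalization, and comparisons between genes as the deposited TPM, which also divides by gene length. Fold changes are on the log2 scale, Cdo1KKO/Sed over WT/Sed, with an approximate SE. A gene rose or fell where its edgeR quasi-likelihood p, adjusted by Benjamini-Hochberg over the 17194 genes tested, was under 0.05. Cdo1 itself stood at 109, 118 and 103 CPM in Cdo1KKO/Sed kidneys, against 181, 191 and 180.5 CPM in WT/Sed kidneys, 59.8% of the WT/Sed mean. Of all genes tested, 37.4% changed. The WT/Sed libraries lay farther from each other than the Cdo1KKO/Sed libraries, with WT/Sed replicates 2 and 3 at opposite ends of the second principal component (14.9% of the variance). Each edgeR p value sets the difference between the groups against the spread between these animals, which was estimated in part from all genes. In whole kidney, fewer cells of a type and less RNA per cell cannot be told apart.

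Most of the clock transcripts differed between the groups, some higher and some lower. All 10 passed the filter on low counts. Arntl, Npas2 and Bhlhe41 rose in Cdo1KKO/Sed kidneys, and Nr1d1, Per2, Dbp, Tef, Hlf and Usp2 fell, so that 3 rose and 6 fell, against 18.9% and 18.5% of all genes tested. Rises made up 50.5% of all calls here, but 76.6% with library size as the only scaling and 84.5% with TPM plus 1. Nfil3 was higher in Cdo1KKO/Sed on average and did not pass the test. In 9 of the 10 genes no library of one group lay within the other group, 4 of them higher and 5 lower in Cdo1KKO/Sed. Such separation was seen in 50.3% of all genes tested, 25.7% higher and 24.5% lower. The median absolute log2 fold change of the 10 genes was 0.88, against 0.29 over all genes tested, and their signed median was -0.39, against 0.01. The 10 genes and the further lists were chosen with earlier results of these data known, so their comparisons with all genes are descriptions. Permuting the libraries of each gene in full (exact permutation test, 2-sided) gave p = 0.1 for the 9 genes without overlap, which is the lowest value possible with 3 and 3, and p = 0.2 for Nr1d1.

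**Figure D1:**
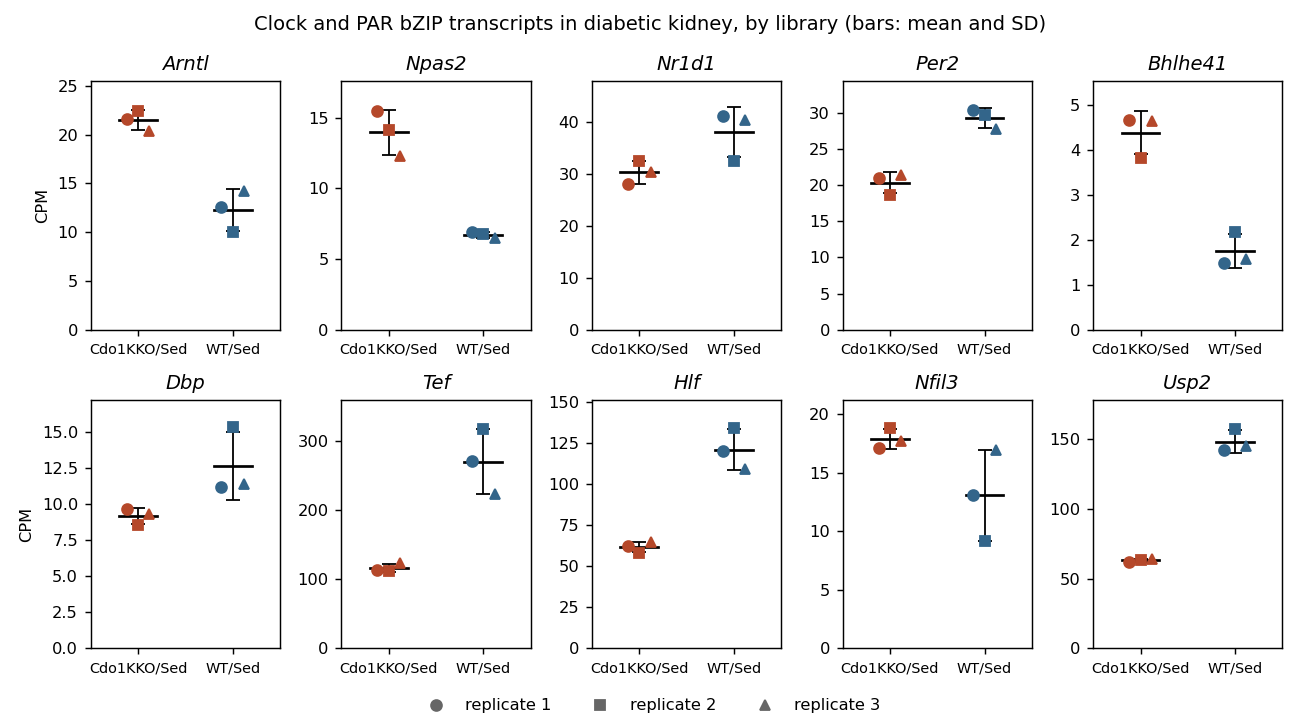
CPM of each of the 10 genes (vertical axes from 0, scales differ) in the 3 Cdo1KKO/Sed and the 3 WT/Sed libraries, with the mean and SD of each group as bars and replicates marked by shape. The groups do not overlap in 9 panels; in the Nr1d1 panel WT/Sed replicate 2 (32.57 CPM) lies level with Cdo1KKO/Sed replicate 2.

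The activators of the loop were higher. Arntl (chr7:113207465-113314126, plus strand) encodes BMAL1, the partner without which the mouse clock stops. It was counted at 21.7, 22.5 and 20.4 CPM in Cdo1KKO/Sed kidneys and at 12.6, 10.01 and 14.3 CPM in WT/Sed kidneys. All Cdo1KKO/Sed libraries lay above every WT/Sed library, and WT/Sed replicate 2 was the lowest of the 6. The mean of 21.5 ± 1.06 CPM in Cdo1KKO/Sed kidneys, against 12.3 ± 2.14 CPM in WT/Sed (SD, n = 3 each) was 1.75-fold higher, a log2 fold change of 0.80 ± 0.12 (edgeR adjusted p = 3.22e-04). Npas2 (chr1:39193731-39363236, plus strand), a relative of Clock that can take its place beside BMAL1, had 15.5, 14.1 and 12.3 CPM in Cdo1KKO/Sed kidneys, against 6.91, 6.75 and 6.52 CPM in WT/Sed kidneys. Here the 3 WT/Sed libraries were nearly level, and the lowest Cdo1KKO/Sed library was well above them. Its log2 fold change was 1.05 ± 0.11 (edgeR adjusted p = 3.35e-05), a 2.08-fold difference of the means. On the TPM scale the transcripts of both genes were about as abundant as each other, Arntl at 7.73 ± 0.306 and Npas2 at 7.89 ± 0.888 TPM in Cdo1KKO/Sed, against 3.71 ± 0.693 and 3.19 ± 0.0797 TPM in WT/Sed.

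Among the genes for repressors of the loop, Per2 and Nr1d1 fell and Bhlhe41 rose. Per2 (chr1:91415982-91459324, minus strand), whose protein joins CRY to shut off BMAL1, was lower, with 20.98, 18.7 and 21.3 CPM in Cdo1KKO/Sed kidneys against 30.4, 29.7 and 27.7 CPM in WT/Sed kidneys. The groups were clearly apart, with a log2 fold change of -0.53 ± 0.08 (edgeR adjusted p = 3.21e-04), and the Cdo1KKO/Sed mean was 69.5% of the WT/Sed mean. With TPM plus 1 the fold change of Per2 was -0.25 and with TPM plus 0.1 it was -0.27, both still called. Nr1d1 (chr11:98767932-98775333, minus strand), the REV-ERB alpha gene, had 28.1, 32.6 and 30.5 CPM in Cdo1KKO/Sed kidneys, against 41.2, 32.57 and 40.5 CPM in WT/Sed kidneys. WT/Sed replicate 2 thus lay within the range of the Cdo1KKO/Sed libraries. Its log2 fold change of -0.33 ± 0.09 passed the test (edgeR adjusted p = 0.0191), but not without WT/Sed replicate 1 (0.0948), Cdo1KKO/Sed replicate 1 (0.0972) or Cdo1KKO/Sed replicate 3 (0.0647). With library size as the only scaling the fold change was -0.16 and with the deposited TPM plus 1 it was -0.07, with no call in either.

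Bhlhe41 encodes DEC2, which competes with BMAL1 for E-boxes, and lies at chr6:145858243-145865558 (minus strand). Its counts were low, at 4.65, 3.82 and 4.64 CPM in Cdo1KKO/Sed kidneys and 1.49, 2.17 and 1.58 CPM in WT/Sed kidneys, without overlap. The mean was 2.5-fold higher in Cdo1KKO/Sed, and the log2 fold change of 1.34 ± 0.20 (edgeR adjusted p = 4.09e-04) had a 95% interval of 0.89 to 1.79. That interval overlaps, in size, those of Usp2 (-1.35 to -1.10), Tef (-1.49 to -0.94) and Npas2 (0.80 to 1.30). With TPM plus 1 the fold change of Bhlhe41 was 0.80, still called, and below the 1.08 of Npas2. Bhlhe41 was at 1.76 ± 0.212 TPM in Cdo1KKO/Sed and 0.590 ± 0.118 TPM in WT/Sed, so the added 1 is larger than its WT/Sed level. Bhlhe41 and Tef, whose printed windows both hold CACGTG, changed in opposite directions. So did Arntl, at 1.75-fold, and Nr1d1, whose product represses it, though Nr1d1 was called in only 10 of 16 alternatives. A link between the genes of either pair was not tested.

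The PAR bZIP activators were lower, most clearly Tef and Hlf. Tef (chr15:81802421-81826863, plus strand), the most abundant of the 10 transcripts by TPM, had 114, 112 and 123 CPM in Cdo1KKO/Sed kidneys, against 271, 317 and 223 CPM in WT/Sed kidneys. The WT/Sed libraries were widely spread and still all lay far above the Cdo1KKO/Sed libraries. The Cdo1KKO/Sed mean was 43.0% of the WT/Sed mean, a log2 fold change of -1.22 ± 0.12 (edgeR adjusted p = 1.38e-04). Hlf (chr11:90336536-90390895, minus strand) had 62.4, 58.4 and 64.4 CPM in Cdo1KKO/Sed kidneys and 120.2, 134 and 109 CPM in WT/Sed kidneys. It fell by 0.97 on the log2 scale, with an SE of 0.08 (edgeR adjusted p = 3.54e-06), which left 51.0% of the mean of WT/Sed kidneys. Dbp (chr7:45705088-45710203, plus strand), the PAR bZIP gene under the most direct control of BMAL1, differed less. It had 9.71, 8.58 and 9.31 CPM in Cdo1KKO/Sed kidneys, against 11.2, 15.4 and 11.4 CPM in WT/Sed kidneys. The groups did not overlap, but WT/Sed replicate 2 stood above the other WT/Sed libraries. The log2 fold change was -0.46 ± 0.13 (edgeR adjusted p = 0.0197), and without WT/Sed replicate 2 it was -0.30 (0.0447). Its call ended without Cdo1KKO/Sed replicate 2 (0.0845) or replicate 3 (0.0650), with library size as the only scaling (-0.29) and with TPM plus 1 (-0.18). As TPM, Dbp overlapped between the groups, with 8.83, 7.65 and 8.48 TPM in Cdo1KKO/Sed kidneys and 8.53, 11.5 and 8.75 TPM in WT/Sed kidneys.

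Nfil3, whose product represses through the same D-boxes, was the gene without a call. At chr13:52967209-52981073 (minus strand), it had 17.1, 18.8 and 17.7 CPM in Cdo1KKO/Sed kidneys and 13.1, 9.15 and 17.0 CPM in WT/Sed kidneys. WT/Sed replicate 3 came just under the lowest Cdo1KKO/Sed library, and the WT/Sed libraries varied by 29.9% (coefficient of variation) against 4.96% in Cdo1KKO/Sed. The log2 fold change was 0.44 ± 0.19, with a 95% interval from -0.003 to 0.89 (edgeR adjusted p = 0.112). Without WT/Sed replicate 3 it was 0.67 (adjusted p = 5.56e-04). Over the edgeR fits that left out 1 library it ranged from 0.25 to 0.67, with an adjusted p of up to 0.247. Nfil3 also passed the threshold with DESeq2 (adjusted p = 0.0323), with library size as the only scaling (0.61 on the log2 scale) and with TPM plus 1 (0.71). With library size only and TPM plus 1 the median of all genes was 0.18 and 0.19, against 0.01. In all, Nfil3 was called in 6 of 16 alternatives.

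As TPM, the transcripts of the D-box activators outnumbered those of Nfil3 in every library, by less in Cdo1KKO/Sed. Dbp, Tef and Hlf summed to 73.6, 68.9 and 77.4 TPM in Cdo1KKO/Sed kidneys, against 128, 147 and 112 TPM in WT/Sed kidneys. Nfil3 itself had 22.9, 24.8 and 23.9 TPM in Cdo1KKO/Sed kidneys, against 14.6, 10.1 and 19.2 TPM in WT/Sed kidneys. The ratio of the sum to Nfil3 was therefore 3.21, 2.78 and 3.24 in Cdo1KKO/Sed and 8.72, 14.5 and 5.79 in WT/Sed. Tef made up 54.6 ± 0.903% of the sum in Cdo1KKO/Sed and 60.4 ± 1.68% in WT/Sed (SD, n = 3 each). These ratios of transcripts are descriptions and were not tested.

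**Figure D2:**
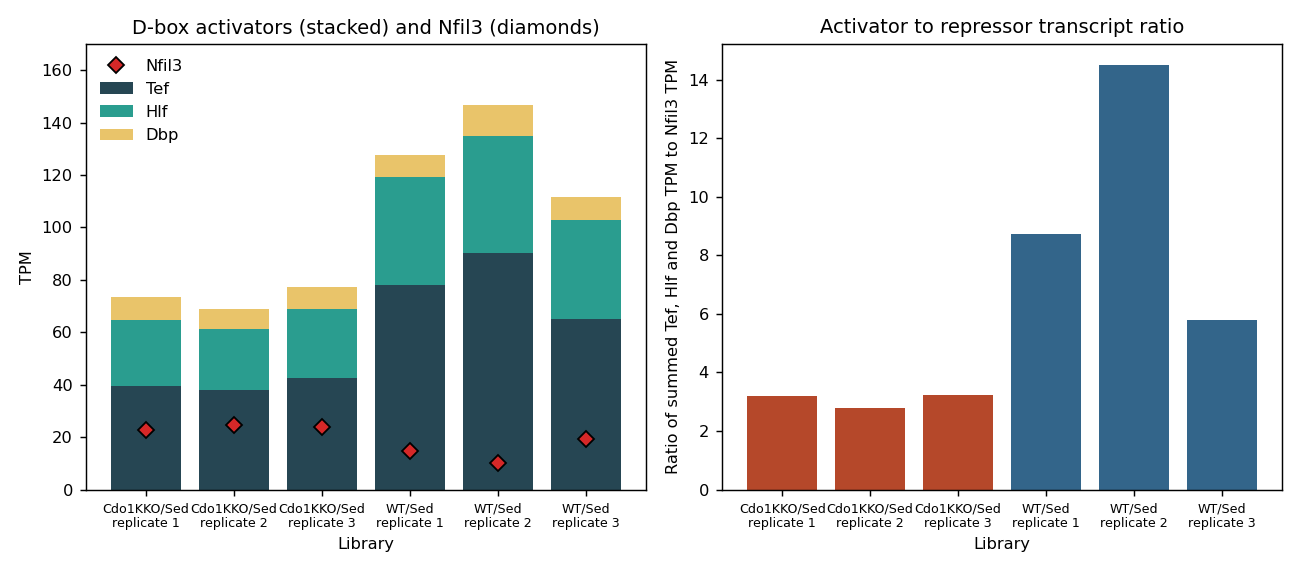
Left, deposited TPM of Tef, Hlf and Dbp stacked for each library, with Nfil3 as diamonds; right, the ratio of the stacked sum to Nfil3. The ratio is 2.78 to 3.24 in the 3 Cdo1KKO/Sed libraries and 5.79 to 14.5 in the 3 WT/Sed libraries.

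Usp2 (chr9:44067021-44095627, plus strand) encodes a ubiquitin protease that removes ubiquitin from clock proteins, and its rhythmic transcript in the kidney has been studied for sodium channel control. It had 62.2, 63.5 and 64.3 CPM in Cdo1KKO/Sed kidneys, against 143, 157 and 145 CPM in WT/Sed kidneys. Both groups were tight and far apart, and the adjusted p was the smallest of the 10 genes. The Cdo1KKO/Sed mean of 63.3 ± 1.06 CPM was 42.7% of the WT/Sed mean of 148 ± 8.03 CPM (SD, n = 3 each), a log2 fold change of -1.23 ± 0.06 (edgeR adjusted p = 4.78e-08). A count per gene does not separate the isoforms of Usp2, of which the short one carries the rhythm in mouse tissues.

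**Figure D3:**
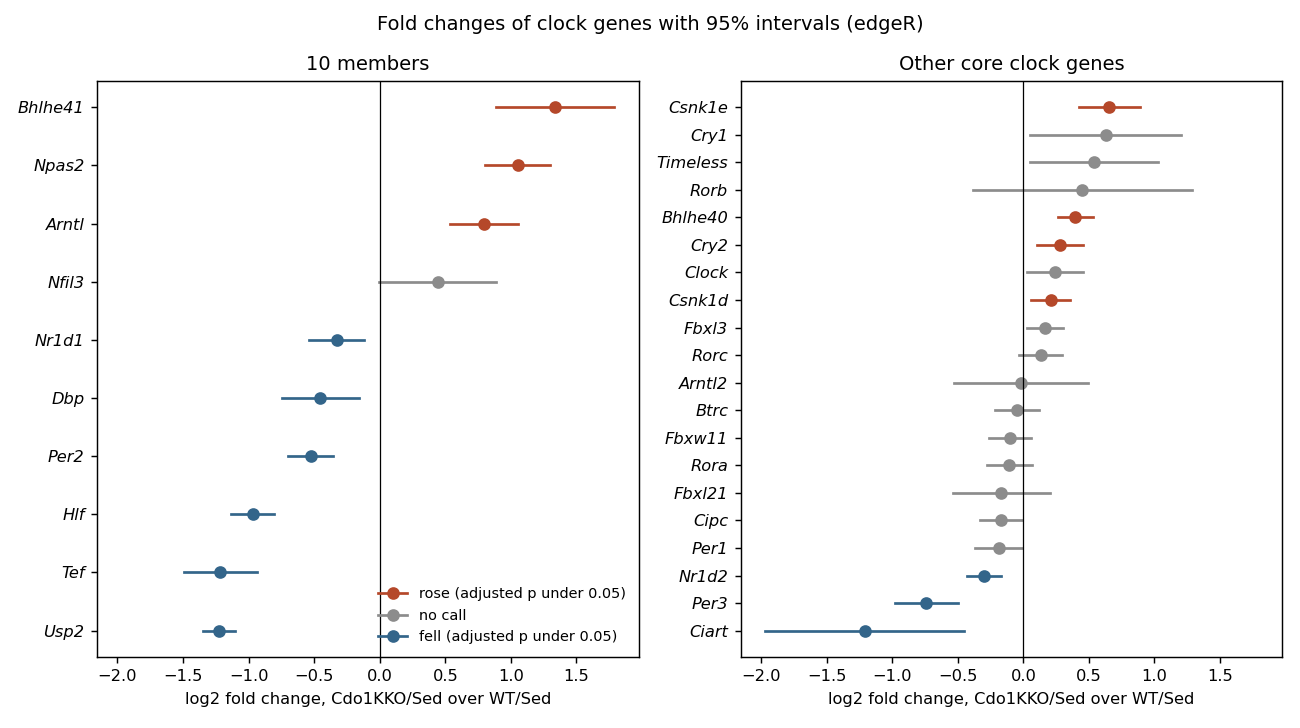
Log2 fold changes, Cdo1KKO/Sed over WT/Sed, with 95% intervals for the 10 genes (left) and 20 further core clock genes (right), coloured by the edgeR call. On the left Bhlhe41, Npas2 and Arntl lie to the right of 0, Tef and Usp2 farthest to its left, and the interval of Nfil3 reaches just below 0.

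The WT/Sed animals differed among themselves in several clock genes at once. WT/Sed replicate 2 was the lowest of the 3 in Arntl, Nfil3 and Nr1d1 and the highest in Dbp, Tef, Hlf, Usp2 and Bhlhe41. WT/Sed replicate 3 was the highest in Arntl and Nfil3 and the lowest in Tef and Hlf. The log2 ratio of Arntl to Dbp CPM, genes that peak at opposite parts of the day in mouse tissues, was 1.16, 1.39 and 1.13 in Cdo1KKO/Sed kidneys, against 0.17, -0.62 and 0.32 in WT/Sed kidneys. The same ratio of Arntl to Per2 was 0.05, 0.27 and -0.07 in Cdo1KKO/Sed, against -1.27, -1.57 and -0.96 in WT/Sed. For Arntl to Nr1d1 it was -0.38, -0.54 and -0.58 in Cdo1KKO/Sed, against -1.71, -1.70 and -1.51 in WT/Sed. The coefficient of variation was lower in Cdo1KKO/Sed than in WT/Sed for 8 of the 10 genes, the exceptions being Npas2 and Per2. Each animal gives 1 time point, so the phase and the amplitude of a rhythm cannot be read from these levels.

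**Figure D4:**
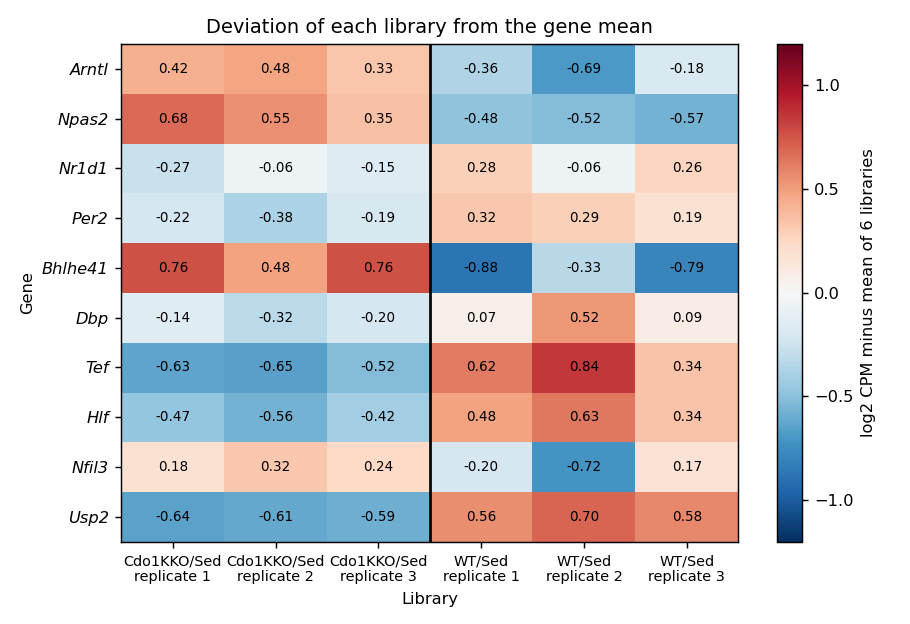
Log2 CPM of each gene in each library minus the mean of the 6 libraries, from blue (below the mean) to red (above). Cdo1KKO/Sed columns resemble each other, while WT/Sed replicate 2 has the lowest Arntl (-0.69) and Nfil3 (-0.72) and the highest Tef (0.84).

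Other genes of the core loop changed in both directions. Of 20 such genes, all tested, 4 rose and 3 fell, or 35.0%, near the 37.4% of all genes, and their median log2 fold change was 0.06. Per3, a PER gene with a minor part in the loop, stood at 13.3 ± 1.60 CPM in Cdo1KKO/Sed kidneys, against 22.3 ± 2.28 CPM in WT/Sed (-0.74 ± 0.11 on the log2 scale, edgeR adjusted p = 3.15e-04). Nr1d2, the REV-ERB beta gene, fell by 0.30, a call that ended with library size as the only scaling (-0.13) and with TPM plus 1 (-0.0426). Ciart, a repressor of BMAL1, was at 2.48, 1.71 and 2.88 CPM in Cdo1KKO/Sed kidneys, against 4.91, 8.25 and 3.43 CPM in WT/Sed kidneys. Its adjusted p of 0.0199 became 0.0638 without Cdo1KKO/Sed replicate 1 and 0.0749 without replicate 2. Those that rose were Bhlhe40, which encodes DEC1, the closest relative of DEC2 (116 ± 7.94 CPM in Cdo1KKO/Sed kidneys, against 88.1 ± 3.39 CPM in WT/Sed, 0.40 ± 0.06 on the log2 scale), the kinase genes Csnk1e (0.65 ± 0.11) and Csnk1d (0.21 ± 0.07), and Cry2 (0.28 ± 0.08). Csnk1d missed the threshold when any Cdo1KKO/Sed library or WT/Sed replicate 1 was left out (0.0591 to 0.114) and Cry2 did so without Cdo1KKO/Sed replicate 3 (0.0729). Without Cdo1KKO/Sed replicate 3, 2 of the 20 rose, without WT/Sed replicate 3, 7 rose, and without WT/Sed replicate 2, 6 fell.

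Clock, the main partner of BMAL1, had 78.7, 77.2 and 80.6 CPM in Cdo1KKO/Sed kidneys, against 65.9, 57.0 and 77.1 CPM in WT/Sed kidneys. The groups did not overlap, but the log2 fold change of 0.24 ± 0.09 missed the threshold (edgeR adjusted p = 0.0749), with a 95% interval of 0.03 to 0.45. Without WT/Sed replicate 3 it was 0.35 (adjusted p = 2.88e-04), and without WT/Sed replicate 2 it was 0.14 (0.0786). With TPM plus 1 it was 0.47 (0.00968). Clock also passed with upper-quartile scaling (edgeR adjusted p = 0.04845), library size only (0.00573), no filter (0.00138) and DESeq2 (0.0489). Cry1 (0.63 ± 0.26, interval 0.05 to 1.2) and Per1 (-0.19 ± 0.08, interval -0.37 to -0.01) likewise had no call. Cry1 was at 0.95 without WT/Sed replicate 3 (adjusted p = 0.00222), at 0.40 without WT/Sed replicate 2 (0.110) and at 0.70 with TPM plus 1 (0.0259). It also passed with library size only (edgeR adjusted p = 0.0293), no filter (0.00469) and DESeq2 (0.0486). Per1 was at -0.29 without Cdo1KKO/Sed replicate 2 (adjusted p = 0.0108) and at -0.13 without Cdo1KKO/Sed replicate 3 (0.316). Without a filter Per1 passed (edgeR adjusted p = 0.0396), and with library size only it was at -0.02 (0.856). The median of all genes lay at 0.01 here and at 0.19 with TPM plus 1, where Per1 turned to 0.06. Ciart, Cry2, Csnk1d, Clock, Cry1 and Per1 were named after their values were seen.

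Genes known to cycle in many mouse tissues outside the loop changed in both directions. Of 18 tested, 5 rose and 8 fell, a share of 72.2% against 37.4% of all genes, with a median of -0.05. Klf15, a factor of amino acid and glucose metabolism, was at 44.8 ± 1.26 CPM in Cdo1KKO/Sed and 91.1 ± 6.38 CPM in WT/Sed (-1.02 ± 0.06 on the log2 scale, edgeR adjusted p = 5.37e-07). Tsc22d3, a glucocorticoid-induced gene, had 27.9 ± 2.20 CPM in Cdo1KKO/Sed kidneys, against 56.8 ± 3.26 CPM in WT/Sed, and Coq10b, of the coenzyme Q pathway, fell by 0.72. Cdkn1a, the p21 gene, which REV-ERB alpha represses and which also responds to p53, was at 51.3 ± 0.587 CPM in Cdo1KKO/Sed and 15.9 ± 1.39 CPM in WT/Sed. The other genes of this list that rose were Klf10, Tspan4, Nampt and Dtx4, by 0.50, 0.36, 0.21 and 0.31 on the log2 scale, named after their values were seen. The others that fell, named in the same way, were Lpin1, Mtss1, Klf9, Tns2 and Por (-0.97, -0.53, -0.53, -0.20 and -0.19). Tns2 was close to the threshold (edgeR adjusted p = 0.0485), and Por is counted in the detoxification list as well. Dtx4 missed the threshold when any Cdo1KKO/Sed library or WT/Sed replicate 1 was left out (0.0646 to 0.0863).

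The detoxification genes reported as PAR bZIP targets in mouse liver also split. Of 9 genes, 7 passed the filter, of which 2 rose and 3 fell, or 71.4% of those tested against 37.4% of all genes. The largest difference was in Cyp2b10, a cytochrome P450, with 26.5, 30.7 and 27.7 CPM in Cdo1KKO/Sed kidneys against 2.16, 2.62 and 1.90 CPM in WT/Sed kidneys (3.69 ± 0.13 on the log2 scale, edgeR adjusted p = 6.85e-09). Cyp2a5 was at 166 ± 16.9 CPM in Cdo1KKO/Sed and 89.4 ± 0.543 CPM in WT/Sed, while Cyp2a4 was at 414 ± 8.27 CPM in Cdo1KKO/Sed and 677 ± 32.7 CPM in WT/Sed. These 2 genes are near-identical copies, so the split of counts between them is uncertain. Alas1, the first enzyme of heme synthesis, and Por, the electron donor of the P450 enzymes, fell by 0.43 and 0.19. Alas1 lost its call with library size as the only scaling and with TPM plus 1. Por, named after its values were seen, missed the threshold when WT/Sed replicate 1, or either of Cdo1KKO/Sed replicates 1 and 3, was left out (0.0701 to 0.0872) and turned to 0.06 with TPM plus 1.

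Renal transport genes for which clock control has been described in mouse kidney were divided evenly. Of 16 tested, 5 rose and 5 fell, or 62.5% against 37.4% of all genes, with a median of 0.01. Aqp2, the water channel of the collecting duct, was at 108, 106 and 107 CPM in Cdo1KKO/Sed kidneys and 292, 269 and 318 CPM in WT/Sed kidneys (-1.45 ± 0.06 on the log2 scale, edgeR adjusted p = 4.28e-08). Edn1, the endothelin gene that PER1 regulates, stood at 4.95 ± 0.608 CPM in Cdo1KKO/Sed kidneys, against 1.15 ± 0.220 CPM in WT/Sed, a log2 fold change of 2.12 ± 0.21. Scnn1a, the alpha subunit of the epithelial sodium channel and a target of PER1 in mouse collecting duct, rose by 0.40 ± 0.05. The glucose transporter gene Slc5a2 fell by 0.49. Named after their values were seen, the others that rose were Slc12a3, Wnk1 and Fxyd5 (0.45, 0.26 and 0.65), and the others that fell were Aqp4, Atp1b1 and Sgk1 (-0.60, -0.24 and -1.71). Sgk1 was uneven in WT/Sed, at 231, 127 and 314 CPM, and missed the threshold when any Cdo1KKO/Sed library or WT/Sed replicate 1 was left out (0.0603 to 0.0734). Fxyd5 lost its call without Cdo1KKO/Sed replicates 2 or 3 (0.0547 and 0.0575), and Atp1b1 turned from -0.24 to 0.01 with TPM plus 1.

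Markers of cell types moved with these changes, and their counts stand against 18.9% of all genes that rose and 18.5% that fell. All 10 markers of the proximal tubule fell, with summed levels of 6206 to 6749 CPM in Cdo1KKO/Sed libraries and 10571 to 11132 CPM in WT/Sed libraries. Of 12 macrophage and dendritic cell markers 9 rose and 1 fell (535 to 555 CPM in Cdo1KKO/Sed, 100.2 to 194 CPM in WT/Sed). Most of that difference was in Cd14, a lipopolysaccharide co-receptor, with 274, 297 and 274 CPM in Cdo1KKO/Sed kidneys and 3.75, 4.87 and 2.87 CPM in WT/Sed kidneys. Of 8 neutrophil markers 5 were tested and 4 rose (14.3 to 17.4 CPM in Cdo1KKO/Sed, 1.57 to 3.03 CPM in WT/Sed), with Ly6g, Mpo and Elane at or near 0. Of 6 thick ascending limb markers 4 rose and 1 fell (5369 to 5566 CPM in Cdo1KKO/Sed, 3268 to 4127 CPM in WT/Sed), and 4 of 5 of the distal convoluted tubule rose (2173 to 2200.4 CPM in Cdo1KKO/Sed, 1266 to 1562 CPM in WT/Sed). Of 8 collecting duct markers 1 rose and 2 fell (375 to 376 CPM in Cdo1KKO/Sed, 586 to 595 CPM in WT/Sed), with a median log2 fold change of 0.10. Their lower sum lay mostly in Aqp2 and in Aqp3, at 52.9 ± 4.02 CPM in Cdo1KKO/Sed and 112 ± 12.5 CPM in WT/Sed. Slc4a1 rose, at 36.6 ± 1.17 CPM in Cdo1KKO/Sed and 18.5 ± 1.86 CPM in WT/Sed, and the others had no call. Of 10 markers for T and NK cells 7 were tested. Of these 0 passed by edgeR, 0 had an unadjusted p under 0.05, and 0 passed by DESeq2 or limma-voom (4.25 to 5.21 CPM in Cdo1KKO/Sed, 2.21 to 5.36 CPM in WT/Sed). Aqp2, Slc5a2, Slc12a3, Avpr2 and Scnn1g belong to marker lists as well as to the transport list. The part of cell composition in the changes of the clock genes was not tested.

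Genes on the opposite strand share exons with some of the clock genes, and the strand setting of the counts is not given in the sources used here. Nr1d1 shares 8.55% of its exonic bases with Thra, a thyroid hormone receptor gene, at 31.4 ± 2.31 CPM in Cdo1KKO/Sed and 28.5 ± 2.91 CPM in WT/Sed. Dbp shares 18.0% with Sphk2, a sphingosine kinase gene, at 25.6 ± 1.503 CPM in Cdo1KKO/Sed and 25.4 ± 0.124 CPM in WT/Sed. Neither of these neighbours passed the test (edgeR adjusted p = 0.232 and 0.904). Bhlhe41 shares 19.0% with Gm43909, which had at most 0.131 CPM in any library.

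Over the 6 libraries, the genes outside these lists whose log2 CPM followed Arntl most closely were Camk2d, Sgms1 and Hivep1, each with a Pearson correlation of 0.998. Those nearest to Dbp were 1700030K09Rik, 2510009E07Rik and Vapa (0.993, 0.987 and 0.987). The points share the difference between groups and the spread of the WT/Sed libraries, and with 6 points the correlations are descriptions.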

How the data were processed

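Kidney poly(A) RNA of 3 Cdo1KKO/Sed and 3 WT/Sed mice was read from the tables the authors deposited: counts per gene, and TPM that sum to the same total in each library. The aligner, counter, annotation and strand setting were not given in the sources used here, while fastp 0.23.4, GRCm38 and mm10 appear in the submitters' processing notes.

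The count model was edgeR 4.0.16 (R 4.3.3): filterByExpr left 17194 genes, libraries were scaled by TMM, and genotype was the only term of a robust quasi-likelihood F test, with Benjamini-Hochberg adjustment over all genes and a threshold of 0.05. The SE of a log2 fold change is its size divided by the square root of F. The libraries held 28145261 to 43872779 counts; reads carry no molecular identifiers. Replicate pairs differed by more than counting noise (chi-square per degree of freedom at least 3.27). Positions are from GENCODE M21 (GRCm38), and promoter windows from RefSeq. The CPM printed are counts per TMM-scaled library size.

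Alternatives were other scalings, limma 3.58.1 (voom, and log2 TPM plus 1 or 0.1), DESeq2 1.42.0, other filters, each library left out, and the replicate number as a term. The 10 genes, the lists, the motifs and the tests were chosen with earlier results of these data known. Named were the 10 genes, Cdo1, the 4 smallest p values of each further list, and the 3 genes of at least 1 CPM nearest to Arntl and to Dbp. Outside this rule, and after their values were seen, the text names genes it identifies as such and the overlapping genes Thra, Sphk2 and Gm43909. The markers Cd14, Ly6g, Mpo, Elane, Aqp3, Slc4a1, Avpr2 and Scnn1g were also named after their values were seen. No batch is given in the labels.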

Additional observations from a re-analysis of the deposited data

How the results depend on the processing

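Arntl, Npas2, Per2, Tef, Hlf, Usp2 and Bhlhe41 kept their direction and their call in all 16 alternatives, though Per2 moved to -0.25 and -0.27 with TPM plus 1 and plus 0.1 and Bhlhe41 to 0.80 with TPM plus 1, and Nr1d1, Dbp and Nfil3 kept their direction. Over all genes the median was 0.18 with library size as the only scaling, 0.19 with TPM plus 1 and 0.25 with TPM plus 0.1, against 0.01. With library size only, 5513 genes rose and 1685 fell, against 3250 and 3185; 9 other core clock genes and 8 rhythmic output genes rose, and 1 PAR bZIP target fell. The log2 fold change was then -0.16 for Nr1d1 and -0.29 for Dbp, both without a call, and 0.61 for Nfil3, with a call. With TPM plus 1, 6784 genes rose and 1246 fell (plus 0.1, 6660 and 1224), and 84.5% of calls were rises, against 76.6% with library size only and 50.5% with TMM. With either TPM setting 9 other core clock genes rose and 1 fell, 9 rhythmic output genes rose and 5 fell, 1 PAR bZIP target fell and 8 renal transport genes rose. Nr1d1 was then at -0.065 and -0.0669, Dbp at -0.18 and -0.19 without a call, and Nfil3 at 0.71 and 0.75 with one. Nfil3 also passed with DESeq2 (0.44) and without a filter (0.44), where 8 other core clock genes rose. Reversals were seen with the TPM values plus 1 and plus 0.1: Per1 at 0.0554 and 0.0577, Por at 0.0581 and 0.0585, and Atp1b1 at 0.00822 and 0.00822. Leaving out 1 library gave -0.42 to -0.27 for Nr1d1, -0.54 to -0.30 for Dbp and 0.25 to 0.67 for Nfil3, 2 to 7 rises and 2 to 6 falls of other core clock genes. Of 544 alternative values of single genes outside the 10, 489 kept direction and side, 33 lost the call, 16 gained it and 6 reversed. The causes were not tested.

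With the replicate number as a block, 3117 genes rose and 3029 fell, and 3 of the 10 clock genes rose and 6 fell. Calls were lost for Ciart (adjusted p = 0.0725) and Sgk1 (0.0618) and gained for Clock (0.0260). Deviations of same-numbered libraries from their group means correlated at -0.002 to 0.013, and those of other pairs at -0.031 to 0.028. The labels name only a number, and with 3 libraries per group these correlations cannot show whether a litter or day was shared. Depth limits Bhlhe41, at 58 to 213 counts per library.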

Other observations

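By transcript abundance the clock genes spanned a wide range in these kidneys. Averaged over the 6 libraries, Tef (58.9 TPM) and Usp2 (52.7 TPM) stood above 89.8% and 88.7% of the genes tested, while Bhlhe41 (1.18 TPM) stood above 20.5%. By the size of the log2 fold change, 4 of the 10 genes, Bhlhe41, Usp2, Tef and Npas2, lay above at least 90.3% of the genes tested. Nr1d1, whose product represses Arntl, was near the middle, above 54.5% of them.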
